A study of Mus musculus with 18 samples.

Results

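The histone genes described here are the 44 genes of 55184 in the P18 tables whose symbol follows one of the patterns Hist1h to Hist4h, H1f, H2af, H2al, H2bf, H2bl and H3f. Of 48 rows with such a symbol, 4 pseudogenes with the suffix -ps were left out. The 44 fall into 14 replicative histone genes, 5 replacement histone genes, 24 testis variants and 1 antisense transcript at a histone gene. All 44 also had a value at P14, 11 of them under an older symbol. A further 65 histone genes carry newer symbols in the P18 tables, such as H2bc21 or H4c, and are used for comparison.

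RNA was measured in 18 libraries of male C57BL/6J mice in 6 groups of 3: Zfp541-/- (KO) and Zfp541+/- (Het) spermatocytes isolated at postnatal day 18 (P18), KO and Het whole testis at P18, and KO and Het whole testis at P14. Both genotypes carry at least 1 mutant allele of Zfp541, a gene for a zinc finger protein of male germ cells, and wild type is not analysed here. The labels call the 3 libraries of a group biological replicates without saying whether each is 1 animal, so p-values measure the spread between libraries. RNA was selected by its poly(A) tail. Values are RPKM (spermatocytes and P14 testis) or FPKM (P18 testis), read or fragment densities scaled to gene length and depth, rescaled between libraries, and group summaries are mean ± SD over 3 libraries. A gene was called where limma gave a Benjamini-Hochberg adjusted p below 0.05 over all genes tested, and differences are on the scale of log2(value + 0.5).

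Histones pack DNA into nucleosomes, and linker H1 histones bind between them. Replicative histones are made in S phase from clustered intronless genes whose transcripts mostly end in a stem-loop and not in a poly(A) tail, so that poly(A) libraries catch a small part of them. Replacement histones are made throughout the cell cycle from ordinary polyadenylated transcripts. Male germ cells add testis variants in steps: H3t in spermatogonia, H1t in pachytene spermatocytes, and H2A.L and H1T2 in spermatids, before transition proteins and protamines take over.

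The sequences upstream of the 3 genes that passed the test in a comparison of KO with Het are shown first, as 250 bases before the RefSeq transcript start (GRCm38.p6). Capitals mark 3 motifs, each searched on both strands. The first is the letters CCAAT, which is bound by the factor NF-Y. The second is TATAA, the letters with which a TATA box often starts. The third, AAACACA, is an element known from H1 gene promoters. Among 32851 upstream windows of the same length, CCAAT was found in 33.8%, TATAA in 22.8% and AAACACA in 6.25%, and the matches printed did not overlap. H1f6 held 1 match of each motif, H3f4 had 2 CCAAT and 1 TATAA, and H3f3b had 4 CCAAT and 1 TATAA.

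H1f6 (chr13:23695561-23695810, + strand): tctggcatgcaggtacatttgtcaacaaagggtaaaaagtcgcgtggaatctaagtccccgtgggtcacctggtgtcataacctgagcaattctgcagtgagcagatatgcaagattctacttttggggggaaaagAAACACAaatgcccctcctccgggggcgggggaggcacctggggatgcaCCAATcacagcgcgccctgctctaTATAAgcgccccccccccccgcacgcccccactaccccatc
H3f4 (chr11:58961461-58961710, + strand): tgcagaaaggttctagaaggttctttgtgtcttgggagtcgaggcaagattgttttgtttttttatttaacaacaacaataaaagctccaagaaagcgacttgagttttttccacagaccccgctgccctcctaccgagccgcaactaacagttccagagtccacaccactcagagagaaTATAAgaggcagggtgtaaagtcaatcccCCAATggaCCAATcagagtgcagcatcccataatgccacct
H3f3b (chr11:116024505-116024754, - strand): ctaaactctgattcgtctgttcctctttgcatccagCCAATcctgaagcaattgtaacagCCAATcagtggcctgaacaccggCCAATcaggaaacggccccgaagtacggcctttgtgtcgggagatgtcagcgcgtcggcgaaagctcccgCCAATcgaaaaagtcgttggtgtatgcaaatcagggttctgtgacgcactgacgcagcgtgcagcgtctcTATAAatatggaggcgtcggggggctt

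H1f6 lies in the H1 gene cluster on chromosome 13 and is shown next to the replicative H1 genes of the same cluster, whose values are given further on. The next lines give 40 bases that start 2 bases before the last CCAAT, with CCAAT and TATAA in capitals. The 4 genes H1f2, H1f3, H1f4 and H1f5 hold AAACACA farther upstream as H1f6 does, and H1f1 does not. RefSeq upstream sequence was matched for 34 of the 44 genes.

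H1f6: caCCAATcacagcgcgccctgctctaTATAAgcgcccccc
H1f1: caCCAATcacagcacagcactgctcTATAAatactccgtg
H1f2: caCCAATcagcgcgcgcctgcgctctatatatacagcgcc
H1f3: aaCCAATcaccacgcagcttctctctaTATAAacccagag
H1f4: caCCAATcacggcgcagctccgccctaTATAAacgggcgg
H1f5: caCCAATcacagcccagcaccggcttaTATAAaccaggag

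Near-identical copies decide which of the 44 genes can be read one by one. For 22 of them, 50% or more of the 50-base words (50-mers) of the gene also occur in other annotated genes, and 10 share none. The first 60 bases of the reading frame (GENCODE M21 transcripts, GRCm38) show both situations, with bases that differ from the first gene of each set in capitals. Over the whole frame of 411 bases, H3f3c differed from H3f3a by 4 bases, whereas H3f3b, which encodes the same H3.3 protein, differed by 95 and H3f4 by 107. Hist1h2ap was identical to Hist1h2ao over all 393 bases, and Hist1h2an differed by 5.

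H3f3a: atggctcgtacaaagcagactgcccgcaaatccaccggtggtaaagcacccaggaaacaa
H3f3c: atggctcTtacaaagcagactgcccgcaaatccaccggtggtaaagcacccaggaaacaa
H3f3b: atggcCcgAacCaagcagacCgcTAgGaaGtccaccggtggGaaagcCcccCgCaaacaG
H3f4: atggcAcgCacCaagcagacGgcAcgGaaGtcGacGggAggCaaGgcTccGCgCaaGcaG
Hist1h2ao: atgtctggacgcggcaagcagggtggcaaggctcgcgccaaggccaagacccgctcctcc
Hist1h2ap: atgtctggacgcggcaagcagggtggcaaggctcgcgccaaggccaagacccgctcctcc
Hist1h2an: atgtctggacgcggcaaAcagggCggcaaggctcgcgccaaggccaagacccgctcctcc

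Depth, read back from the values, was 9.26 to 18.31 Mreads (megareads) per library in spermatocytes, 12.81 to 16.95 Mreads in P18 testis and 17.96 to 21.12 Mreads in P14 testis. Zfp541 had 13.6, 11.9 and 12 in KO spermatocytes, against 39.8, 31 and 58 in Het spermatocytes. It had 11.2, 9.12 and 10.4 in KO testis at P18, against 30.5, 23.9 and 21.4 in Het testis, and 3.17, 3.94 and 5.04 in KO testis at P14, against 7.54, 9.15 and 9.24 in Het testis. The KO libraries were below the Het libraries in each set, and transcript remained in all of them. The summed level of 10 Sertoli cell markers was 47.1 to 94.1 in spermatocytes and 1278 to 1709 in P18 testis, while 5 markers of peritubular myoid cells had a median difference of 0.13 (log2) between these fractions in Het. Of the genes called between KO and Het, 36.4% were higher in spermatocytes and 24.7% in P18 testis; with values as deposited these shares were 54.3% and 46.4%, and the median over all genes moved to 0.17 and 0.12 on the log2 scale.

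Most testis variants were at 0 or at low values at these ages. At least 1 RPKM or FPKM in at least 3 of the 6 libraries of a set was reached by 3 of 24 variants in spermatocytes, the 3 genes H1f6, H3f4 and H2bfm, by the same number in P18 testis, and by 2 at P14. The 18 H2al genes, which encode the short H2A.L variants of spermatids, lie on the X (15 genes), the Y (2) and chromosome 2 (1). None exceeded 0.39 in any library, and 8 of them were at 0 in all 18. Since 13 of the 18 share 50% or more of their 50-mers, reads from them may not be assigned to 1 gene. H2al1j, with no 50-mer shared, was at 0 throughout, and a count of 0 allows up to 3 reads, which equals 0.496 to 0.982 RPKM in a spermatocyte library. H1f7, the spermatid linker histone H1T2, was also at 0 in all libraries, with an upper limit of 0.125 to 0.248 RPKM in spermatocytes. H2bl1, another late H2B variant, had at most 2 reads in a library. H1f8, the oocyte linker histone, is counted among the 24 variants and ranged from 0.0866 to 0.918. These genes were below the filter and were not tested between genotypes.

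H1f6 encodes H1t (chromosome 13, 23695814 to 23696725), the linker histone that marks pachytene spermatocytes, and it fell in both KO sets at P18. Spermatocytes had 1.04, 0.852 and 0.605 RPKM in KO, against 2.93, 2.6 and 2.21 RPKM in Het. P18 testis had 0.786, 0.501 and 0.492 FPKM in KO, against 4.59, 2.78 and 3.24 FPKM in Het. Every KO library was below every Het library in both sets. The difference was −1.21 ± 0.20 (SE, log2; adjusted p = 0.00438, limma) in spermatocytes and −1.87 ± 0.21 (adjusted p = 0.00526, limma) in testis. A test of the difference between both effects gave 0.54 ± 0.27 (adjusted p = 0.375, limma), so a larger change in testis was not shown. H1f6 rested on few reads, 8 to 12 per KO and 23 to 37 per Het spermatocyte library, and in P18 testis it passed the filter through the Het libraries alone, so that without any 1 of them it was not tested. Without a filter its adjusted p was 0.0113 there (limma), and on reads read back the difference was −2.50 ± 0.37 (adjusted p = 0.00142, limma-voom).

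At P14, before most cells reach the stage at which H1t accumulates, H1f6 had 0.848, 0.714 and 1.09 RPKM in KO testis, against 0.786, 0.932 and 1.28 RPKM in Het testis. The P14 libraries overlapped and H1f6 was below the filter there. The P14 values were made with another gene length than the P18 values, so the ages are not compared for this gene. The sum of 12 pachytene markers was also lower in KO at P18. It was 210 to 266 in KO spermatocytes and 1389 to 3128 in Het spermatocytes, and 212 to 229 in KO testis and 738 to 1631 in Het testis. All 12 were called lower in both sets and none was at 0. Of all genes tested 22.3% were lower in spermatocytes and 17.2% in P18 testis. At P14 the marker sum was 65.7 to 96.6 in KO testis and 132 to 177 in Het testis. There 1 of 7 tested markers was called lower, beside 0.164% of all genes tested. In bulk libraries fewer cells of a stage and less RNA per cell cannot be told apart, and the part of the cell stages in the H1f6 result was not tested.

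H3f4, the gene of testis histone H3t (chromosome 11, 58961812 to 58962222, listed as a pseudogene in GENCODE M21), rose in KO spermatocytes. It had 63.7, 46 and 60.2 RPKM in KO spermatocytes, against 39.9, 27.6 and 36.2 RPKM in Het spermatocytes. The lowest KO library was above the highest Het library. The difference was 0.71 ± 0.18 (adjusted p = 0.0225, limma), and with the replicate numbers as pairs it was 0.71 ± 0.09 (adjusted p = 0.00484, limma). Without KO replicate 1 or KO replicate 3 the adjusted p was 0.07 and 0.0795, and without a filter on low values 0.0568 (limma). All fits without 1 library had the KO level higher, by 0.54 to 0.85 on the log2 scale.

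In whole testis H3f4 did not pass the test. P18 testis had 15.7, 14.6 and 10.7 FPKM in KO, against 9.34, 12.2 and 11.4 FPKM in Het, and these libraries overlapped (0.30 ± 0.16, adjusted p = 0.229, limma). P14 testis had 27.9, 29.2 and 27.3 RPKM in KO, against 25.5, 27.6 and 21.9 RPKM in Het (0.17 ± 0.09, adjusted p = 0.615, limma). The effects in spermatocytes and in P18 testis were not shown to differ (0.32 ± 0.26, adjusted p = 0.614, limma). H3f4 has no 50-mer in common with other genes. It lies in an intron of Trim17 on the same strand, and Trim17 moved the other way, with 2.08, 2.31 and 2.03 RPKM in KO spermatocytes, against 3.86, 3.76 and 5.79 RPKM in Het spermatocytes (−0.89 ± 0.19, adjusted p = 0.011, limma).

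H3t is known from spermatogonia, and the sums of spermatogonial and S phase markers were also higher in KO spermatocytes. The 12 spermatogonial markers summed to 443 to 507 in KO spermatocytes and 267 to 329 in Het spermatocytes, with 6 higher and 1 lower among 12, and none at 0. The 20 genes of S phase and replication summed to 590 to 635 in KO spermatocytes and 469 to 530 in Het spermatocytes, with 10 higher and 1 lower. The 10 early meiosis markers overlapped, at 1029 to 1198 in KO and 944 to 1181 in Het spermatocytes, with 3 higher and 1 lower. Of all genes tested there 12.7% were higher and 22.3% lower. In P18 testis the spermatogonial sum was 257 to 285 in KO and 203 to 247 in Het. The S phase sum there was 313 to 336 in KO and 321 to 344 in Het. The part of these cell stages in the H3f4 result was not tested.

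The third testis variant above the filter, H2bfm, an X-linked H2B gene, did not pass between genotypes. Spermatocytes had 3.47, 2.71 and 3.15 RPKM in KO, against 2.88, 1.77 and 3.03 RPKM in Het (0.26 ± 0.21, adjusted p = 0.365, limma). P18 testis had 1.84, 2.06 and 3.06 FPKM in KO, against 1.92, 1.89 and 2.17 FPKM in Het, and P14 testis had 2.17, 3.07 and 1.91 RPKM in KO, against 3.17, 2.8 and 1.93 RPKM in Het. Its libraries overlapped in all 3 sets, with adjusted p = 0.558 in P18 testis and 0.905 at P14 (limma).

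**Figure D1:**
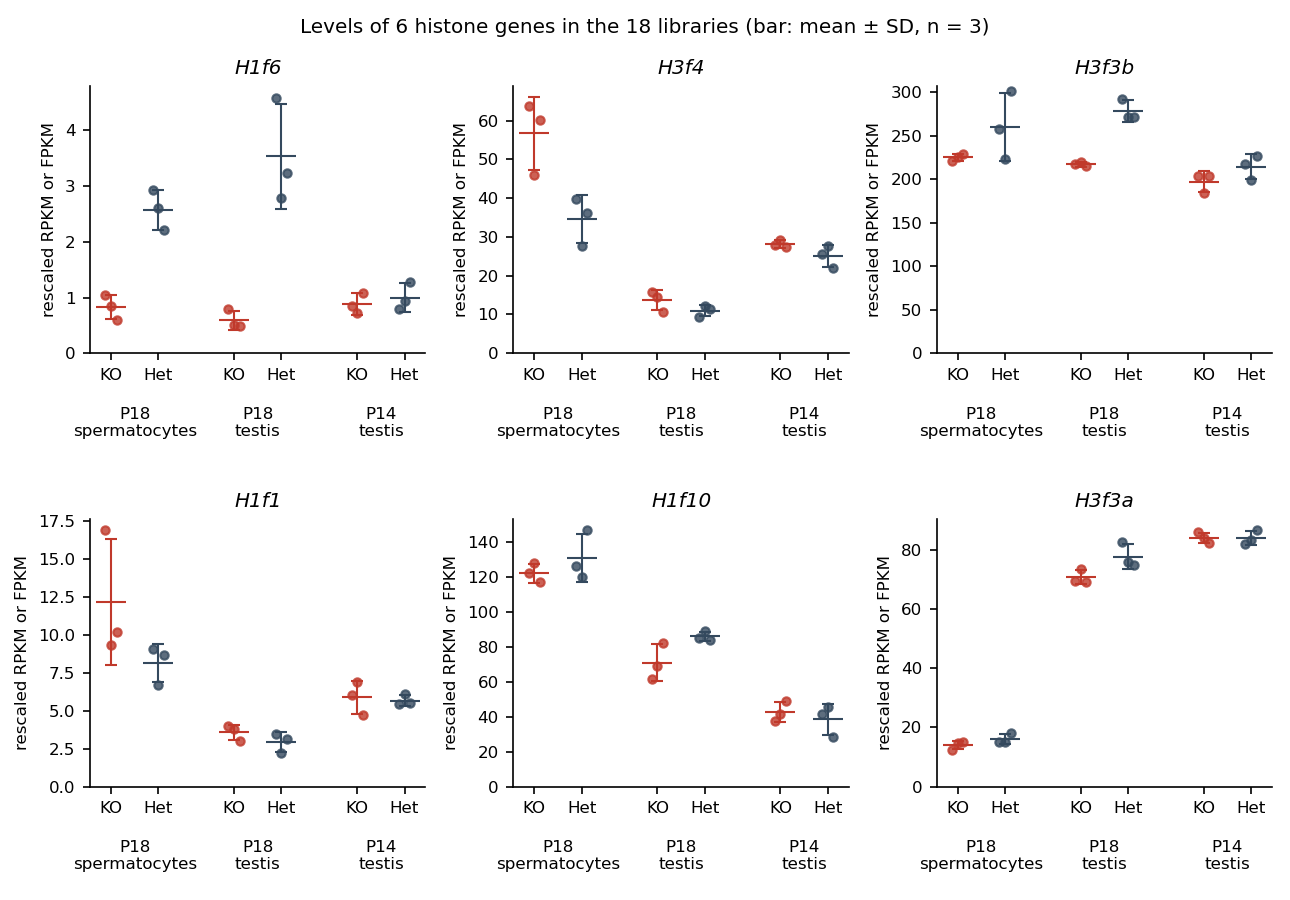
Levels of 6 histone genes (rescaled RPKM for spermatocytes and P14 testis, rescaled FPKM for P18 testis, linear axis from 0), with 1 point per library, KO in red left of Het in dark blue, and bars for mean ± SD (n = 3). At P18 H1f6 is at 2.21 to 4.59 in Het libraries and below that range in every KO library. Its P14 values rest on another gene length, and KO and Het overlap there. H3f4 is highest in KO spermatocytes (46 to 63.7).

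Replacement histones made up most of the summed level of the 44 genes. H3f3b and H3f3a both encode H3.3, the H3 that is deposited outside S phase. H3f3b (chromosome 11, 116021912 to 116027962) fell in KO testis at P18, to 217, 220 and 215 FPKM, against 292, 271 and 271 FPKM in Het testis. All KO libraries were below all Het libraries, and the difference was −0.36 ± 0.05 (adjusted p = 0.0087, limma). It was −0.24 with values as deposited, and without Het replicate 2 the adjusted p was 0.051 (limma).

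In spermatocytes H3f3b had 221, 225 and 229 RPKM in KO, against 257, 223 and 301 RPKM in Het, which overlapped (−0.20 ± 0.12, adjusted p = 0.246, limma). At P14 it had 204, 184 and 204 RPKM in KO testis, against 217, 199 and 227 RPKM in Het testis (−0.12 ± 0.07, adjusted p = 0.664, limma). The effect in P18 testis was not shown to differ from that at P14 (−0.25 ± 0.09, adjusted p = 0.121, limma) or from that in spermatocytes (0.06 ± 0.10, adjusted p = 0.837, limma). The 10 Sertoli cell markers summed to 1685 to 1709 in KO testis and 1278 to 1546 in Het testis at P18, with 3 of 10 higher and none at 0. Of all genes tested there 5.64% were higher. The part of the Sertoli cell markers in the H3f3b result was not tested.

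H3f3a had 69.6, 73.5 and 69.2 FPKM in KO testis at P18, against 82.7, 76 and 74.8 FPKM in Het testis. These libraries did not overlap, but the difference of −0.14 ± 0.06 did not pass (adjusted p = 0.152, limma). In spermatocytes H3f3a had 12.5, 14.6 and 15.2 RPKM in KO, against 15.1, 15 and 18.1 RPKM in Het (−0.18 ± 0.12, adjusted p = 0.284, limma). At P14 the values were 82.3 to 86 RPKM in KO testis and 82.1 to 86.7 RPKM in Het testis. The antisense transcript H3f3aos, which overlaps H3f3a on the other strand, had 2.82, 2.58 and 2.79 RPKM in KO spermatocytes, against 2.06, 2 and 1.17 RPKM in Het spermatocytes, apart but not past the test (0.55 ± 0.20, adjusted p = 0.073, limma). Whether the counting used strand was not stated, so where both genes overlap their reads cannot be told apart.

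The replacement linker histones H1f0 (H1.0, of differentiated cells) and H1f10 (H1x) were not called between genotypes with the settings used throughout. H1f0 had 32, 30.8 and 26.2 RPKM in KO spermatocytes, against 27, 23.7 and 17.1 RPKM in Het spermatocytes (0.40 ± 0.18, adjusted p = 0.121, limma). With the replicate numbers as pairs it passed (0.40 ± 0.11, adjusted p = 0.0391, limma). In P18 testis H1f0 had 36.3, 37 and 38.9 FPKM in KO, against 28.5, 35.3 and 35.7 FPKM in Het (0.18 ± 0.10, adjusted p = 0.22, limma). At P14 it had 33 to 34.2 RPKM in KO testis and 30.7 to 33.2 RPKM in Het testis. Its mean was higher in KO in each set, without passing the unpaired test.

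H1f10 had 122, 128 and 117 RPKM in KO spermatocytes, against 126, 120 and 147 RPKM in Het spermatocytes. In P18 testis it had 61.8, 68.8 and 82.3 FPKM in KO, against 85.2, 88.9 and 84.1 FPKM in Het, apart but not past the test (−0.29 ± 0.11, adjusted p = 0.0992, limma). Without KO replicate 3 it was called there. At P14 it had 37.4, 41.5 and 48.8 RPKM in KO testis, against 41.5, 45.7 and 28.3 RPKM in Het testis (0.16 ± 0.19, adjusted p = 0.845, limma). H3f3c, an intronless copy of H3f3a annotated as a pseudogene, was at 0.698 to 1.39 FPKM in KO testis and 0.833 to 1.65 FPKM in Het testis at P18, and at 0.42 to 0.58 RPKM in KO spermatocytes and 0.176 to 0.754 RPKM in Het spermatocytes.

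With the settings used throughout, limma and voom called none of the 14 replicative genes of the symbol rule between genotypes. Among them 1, H1f2 in P18 testis, had an unadjusted p below 0.05. Replicative genes with newer symbols, some of which were called, are counted further on. With values as deposited H1f1 was called in spermatocytes and H1f2 in P18 testis, and without a filter on low values H1f5 was called in P18 testis. H1f1 (H1a, chromosome 13, 23763666 to 23764406), a replicative linker histone, had the highest level of those with no 50-mer shared. It had 16.9, 9.32 and 10.2 RPKM in KO spermatocytes, against 9.06, 6.69 and 8.68 RPKM in Het spermatocytes. These libraries were apart, and the difference of 0.51 ± 0.23 did not pass (adjusted p = 0.131, limma) but passed with the replicate numbers as pairs (0.51 ± 0.15, adjusted p = 0.0485, limma). In P18 testis H1f1 had 3.97, 3.78 and 3.03 FPKM in KO, against 3.49, 2.22 and 3.16 FPKM in Het (0.26 ± 0.18, adjusted p = 0.325, limma). H1f2 (H1c), another linker histone, had 6.39, 6.37 and 6.71 FPKM in KO testis at P18, against 4.48, 5.66 and 5.21 FPKM in Het testis, apart and close to the threshold (0.32 ± 0.10, adjusted p = 0.0597, limma). The remaining H1 genes were low at P18, with H1f3 at 0.0175 to 0.0996, H1f4 at 0.303 to 1.05 and H1f5 at 0 to 0.834 in the 12 P18 libraries.

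Counted together, 11 of the 44 genes were tested in spermatocytes, of which 1 rose (H3f4) and 1 fell (H1f6), whereas 35.1% of all genes tested were called there, 12.7% higher and 22.3% lower. In P18 testis 14 were tested, 2 fell (H1f6 and H3f3b) and 4 had an unadjusted p below 0.05, whereas 22.8% of all genes were called, 5.64% higher and 17.2% lower. At P14, 20 were tested and limma called none, with 0 at an unadjusted p below 0.05 and 0 with voom, whereas 0.175% of all genes were called. The median difference of the tested genes was 0.23 in spermatocytes, 0.07 in P18 testis and 0.08 at P14, and that of all genes tested was 0.00, 0.02 and 0.01. Groups were apart for 4 of 11 in spermatocytes (53.2% of all genes), for 6 of 14 in P18 testis (47.9%) and for 2 of 20 at P14 (15.7%). The shares called were not above those of all genes.

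**Figure D2:**
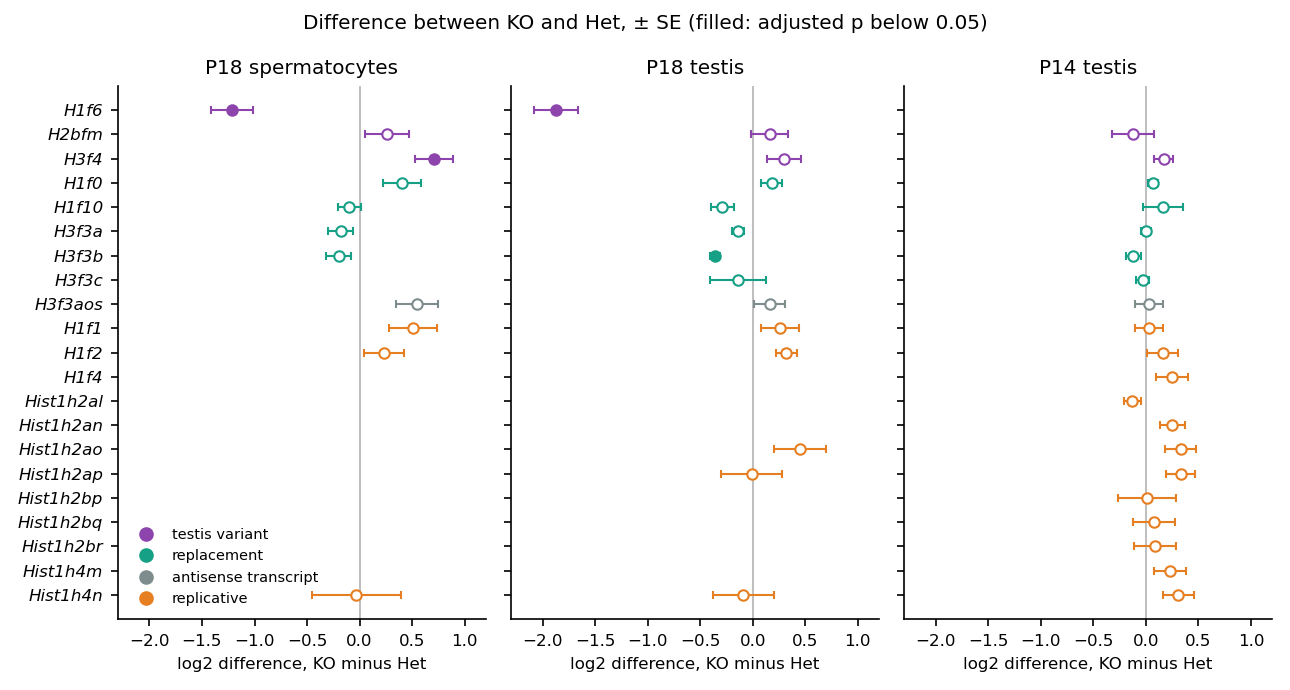
Differences between KO and Het on the log2 scale (x axis, ± SE) for each tested histone gene (y axis) in spermatocytes, P18 testis and P14 testis, coloured by class; filled points passed the adjusted p threshold of 0.05. H1f6 lies at −1.21 and −1.87 in both P18 sets, H3f4 at 0.71 in spermatocytes and H3f3b at −0.36 in P18 testis, and all P14 points are open and between −0.13 and 0.33.

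The highest replicative values of the study came from genes with near-identical copies, and only at P14. Hist1h2ao had 71.7, 65.3 and 73.8 RPKM in KO testis at P14, against 63.8, 61.8 and 43.5 RPKM in Het testis (0.33 ± 0.15, adjusted p = 0.593, limma). Its identical copy Hist1h2ap had 71.6, 65.2 and 73.7 RPKM in KO testis and 63.1, 61.7 and 43.8 RPKM in Het testis. In reads, both copies had 402 to 726 per P14 library and differed from each other by 1 to 4 reads. The third of the 3 highest replicative genes, Hist1h2al, annotated as a pseudogene, had 22.5, 23.1 and 22.8 RPKM in KO testis at P14, against 26.2, 27 and 22.1 RPKM in Het testis. At P14 these 3 genes did not pass between genotypes.

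At P18 the same sequences gave few reads. Hist1h2ao had 1.34, 2.02 and 2.81 FPKM in KO testis, against 1.02, 1.57 and 1.41 FPKM in Het testis, and both copies were at 0 in all 6 spermatocyte libraries. H3f3c behaved alike, with 187 to 200 RPKM in KO testis and 189 to 209 RPKM in Het testis at P14, against at most 1.65 FPKM in P18 testis. How reads that align to several places were counted is not given in the sources used here and may differ between the sets. Differences of shared genes between sets are therefore given as values and not read as a change in expression.

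Summed over the class, the 6 replicative genes with under 50% of their 50-mers elsewhere had 16.1 ± 4.62 in KO spermatocytes and 11.8 ± 0.983 in Het spermatocytes. In P18 testis they had 11.2 ± 0.437 in KO and 10.2 ± 0.623 in Het, and in P14 testis 16.3 ± 2.02 in KO and 14.9 ± 2.3 in Het (n = 3 each). The 5 replacement genes summed to 391 ± 6.1 in KO spermatocytes and 430 ± 50.3 in Het spermatocytes, and to 397 ± 11.1 in KO testis and 476 ± 12.1 in Het testis at P18. The 24 testis variants summed to 61.4 ± 9.6 in KO spermatocytes and 40.4 ± 6.79 in Het spermatocytes, nearly all of it H3f4, and to 17.2 ± 2.17 in KO testis and 17.1 ± 0.69 in Het testis at P18. Groups were apart for the testis variants in spermatocytes (50.6 to 68.8 in KO, 32.9 to 46.1 in Het) and for the replacement genes in P18 testis (385 to 406 in KO, 467 to 490 in Het). The replacement sum in P18 testis is mostly H3f3b, the only 1 of the 5 genes called there, and H1f0 had a higher mean in KO.

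**Figure D3:**
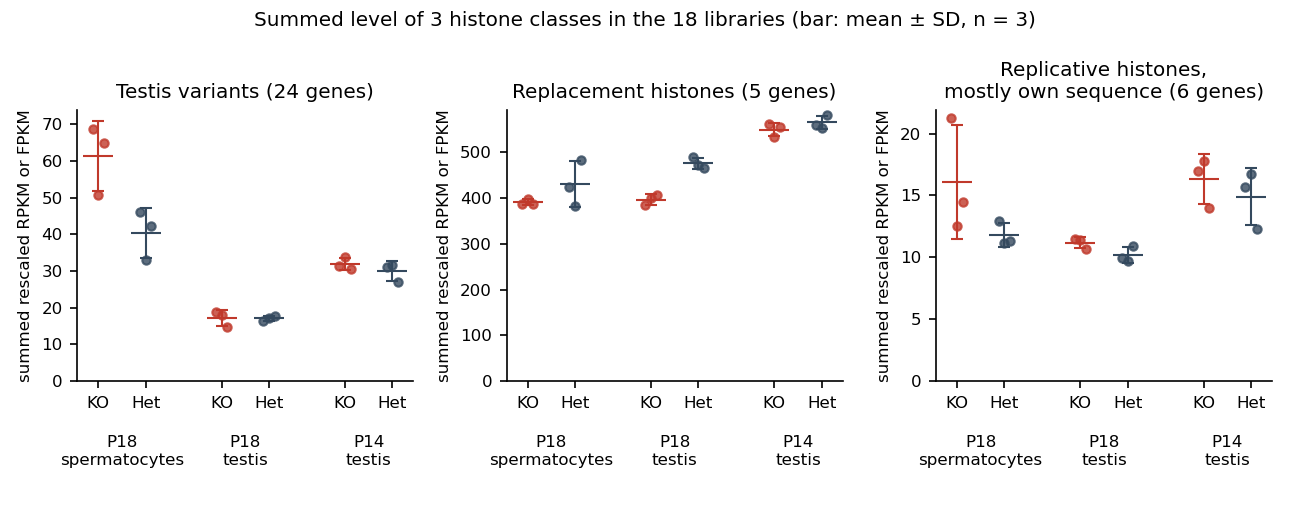
Summed level per library (rescaled RPKM or FPKM, linear axis from 0) of the 24 testis variants, the 5 replacement genes and the 6 replicative genes with mostly unshared sequence, KO left of Het in each set, bars mean ± SD (n = 3). The sum of the testis variants is highest in KO spermatocytes (50.6 to 68.8), and the sum of the replacement genes is lower in KO than in Het testis at P18. The P14 sum of the replacement genes holds H3f3c at 187 to 209, which shares its sequence with H3f3a.

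Isolated spermatocytes differed from whole testis in the same genotype. In Het at P18, 14 of the 44 genes were tested, 3 were higher and 5 lower in spermatocytes, whereas 61.2% of all genes were called, 32.1% higher and 29.1% lower. Of all calls 52.5% were higher, and 34.7% with values as deposited. H3f4 stood at 34.6 ± 6.28 RPKM in Het spermatocytes and 11 ± 1.46 FPKM in Het testis (1.83 ± 0.18, adjusted p = 9.59e-06, limma). H1f1 stood at 8.14 ± 1.27 RPKM in Het spermatocytes and 2.95 ± 0.658 FPKM in Het testis (1.53 ± 0.21, adjusted p = 8.67e-05, limma), and H1f10 at 131 ± 13.8 RPKM and 86.1 ± 2.55 FPKM (0.83 ± 0.10, adjusted p = 4.81e-05, limma). These genes thus stood higher per library in the isolated cells. So did 8 of 12 spermatogonial, 19 of 20 S phase, 8 of 10 early meiosis and 7 of 12 pachytene markers, with 1, 0, 1 and 0 lower. The part of cell stages in these differences was not tested.

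H1f2 was lower in spermatocytes, at 2.35 ± 0.627 RPKM in Het spermatocytes and 5.12 ± 0.601 FPKM in Het testis (−0.79 ± 0.17, adjusted p = 0.00205, limma). H3f3a was lower by 2.02 ± 0.08 on the log2 scale (adjusted p = 3.85e-08, limma), while H3f3b was at 260 ± 38.9 RPKM in Het spermatocytes and 278 ± 12.4 FPKM in Het testis (0.13 ± 0.07, adjusted p = 0.15, limma). H3f3a shares 27.08% of its 50-mers with other genes. The count of 5 lower includes the shared copies Hist1h2ao and Hist1h2ap, which were listed at 0 in all spermatocyte libraries and passed the filter through testis alone, so their call followed from the filter. H3f3aos was lower (−0.54 ± 0.20, adjusted p = 0.0335, limma), but its call ended without a filter, with the replicate block, and without spermatocyte Het replicate 3 (adjusted p = 0.115) or testis Het replicate 2 (0.0539) or 3 (0.133, limma). H1f6 did not differ past the threshold (−0.17 ± 0.19, adjusted p = 0.455, limma). None of the 14 passed the test of a genotype effect that differed between fractions (0 at an unadjusted p below 0.05, 0 with voom), whereas 1.87% of all genes did, 0.0704% higher and 1.8% lower.

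Between P18 and P14, 15 of the 44 genes had the same gene length in both sets and were tested in Het testis, with 1 higher and 11 lower at P18, whereas 61.7% of all genes were called, 29.8% higher and 31.9% lower. Of all calls 48.3% were higher, and 65% with values as deposited. The 7 tested genes with 50% or more shared 50-mers all had lower values at P18, by 1.93 to 7.04 on the log2 scale, which is not read as a change for the reason given above. Among the 8 others 1 was higher and 4 were lower, with a median of −0.20. H1f10 was higher, at 86.1 ± 2.55 FPKM at P18 and 38.5 ± 9.05 RPKM at P14 (0.93 ± 0.17, adjusted p = 0.000667, limma). H3f4 was lower, at 11 ± 1.46 FPKM at P18 and 25 ± 2.88 RPKM at P14 (−1.40 ± 0.14, adjusted p = 9.55e-06, limma). H3f3a was lower by 0.36 ± 0.05 on the log2 scale (adjusted p = 5.41e-05, limma) and Hist1h2bp, with 44.14% of its 50-mers shared, by 1.49 ± 0.25 (adjusted p = 0.000348, limma). H2bfm was close to the threshold (−0.52 ± 0.20, adjusted p = 0.046, limma), and 10 alternatives ended its call, among them leaving out P14 Het replicate 1 or 2, P14 KO replicate 1, any P18 Het library or P18 KO replicate 2 (adjusted p = 0.0534 to 0.157, limma). For no tested gene was the genotype effect shown to differ between ages (3 at an unadjusted p below 0.05, 0 with voom), whereas 8.08% of all genes passed, 0.333% higher and 7.75% lower.

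**Figure D4:**
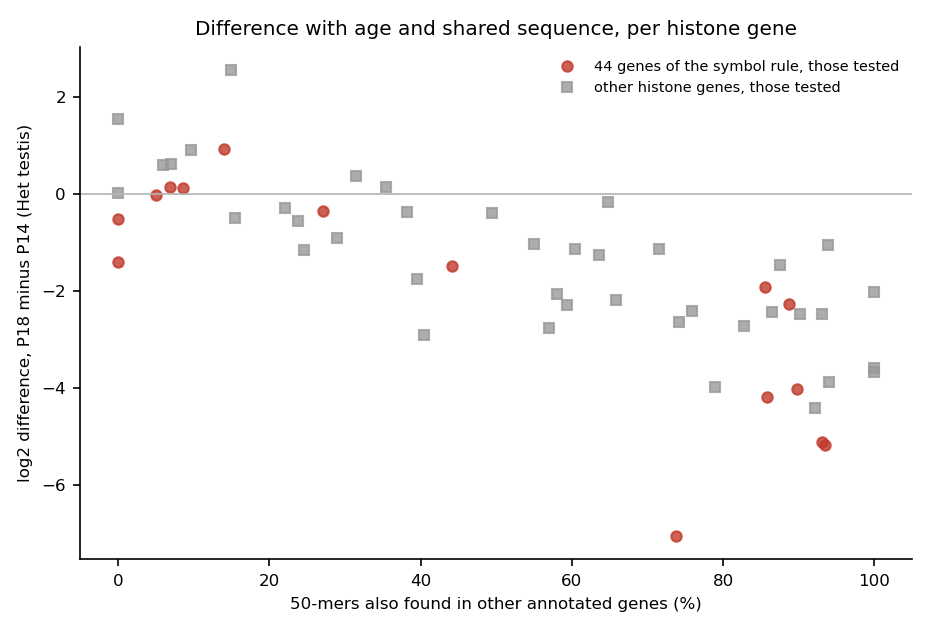
Difference between P18 and P14 in Het testis on the log2 scale (y axis, from FPKM at P18 and RPKM at P14) against the share of a gene's 50-mers that other annotated genes also hold (x axis, percent), 1 point per tested histone gene, red for the 15 genes of the symbol rule and grey for the other histone genes. All red points above 50% lie between −1.93 and −7.04, and those below 50% lie between −1.49 and 0.93.

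The 65 histone genes with newer symbols were compared only to place these results. In spermatocytes 25 of them were tested, 2 rose and 7 fell, and in P18 testis 29 were tested and 8 fell. Among the 65 are 52 replicative genes, H2bc21 included. Of these, 16 were tested in spermatocytes, with 1 higher and 5 lower, and 20 in P18 testis, with 0 higher and 4 lower. Over all genes tested 35.1% were called in spermatocytes (12.7% higher, 22.3% lower) and 22.8% in P18 testis (5.64% higher, 17.2% lower). Whether the 65 genes exceed these shares was not tested. H2bc21 (Hist2h2be), an H2B gene that makes polyadenylated transcripts, had 0.242, 0.165 and 0.263 RPKM in KO spermatocytes, against 9.26, 9.42 and 17 RPKM in Het spermatocytes (−4.05 in the fit, adjusted p = 0.000237, limma). Macroh2a3 fell in spermatocytes and in P18 testis (−3.14 and −2.37 in the fits, with 1 or 2 reads in each KO spermatocyte library), with 0.0714, 0.0777 and 0.124 RPKM in KO spermatocytes, against 2.73, 3.9 and 9.41 RPKM in Het spermatocytes. Its relative Macroh2a1, a macroH2A known from the silenced sex chromosomes of spermatocytes, had 8.3, 9.44 and 9.91 RPKM in KO spermatocytes, against 25, 20.2 and 36.3 RPKM in Het spermatocytes (adjusted p = 0.00274, limma). H2ax, the H2A that is phosphorylated at DNA breaks, fell in P18 testis, with 50.8, 57.7 and 64 FPKM in KO, against 79.2, 79.8 and 90.5 FPKM in Het (adjusted p = 0.0165, limma). H2bc21 and Macroh2a3 were below 1 RPKM in all KO spermatocyte libraries and passed the filter there through the Het libraries alone.

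Genes that act on histones were counted from 4 lists. Their counts stand beside shares over all genes of 12.7% higher and 22.3% lower in spermatocytes and 5.64% higher and 17.2% lower in P18 testis. The 12 pachytene markers given beside H1f6 all fell in both sets, and their part in the counts was not tested. The lists held genes called in both directions. Over the 4 lists the largest rises in spermatocytes were those of Cdyl (0.74, log2), Anp32e (0.52) and Hat1 (0.47). Of 13 genes for histone removal and modification in spermatids, 12 were tested in spermatocytes, with 3 higher and 6 lower, and 1 higher and 5 lower in P18 testis. Phf7, a reader and ubiquitin ligase of histones, fell in both, to 18.5, 17.1 and 21 RPKM in KO spermatocytes, against 160, 123 and 272 RPKM in Het spermatocytes (adjusted p = 0.000409, limma). Of 26 histone chaperones 6 rose and 6 fell in spermatocytes and 2 rose and 6 fell in P18 testis, among them Nasp, a chaperone for H1 and H3, by −0.75 and −0.87. Of 16 genes for histone mRNA transcription and 3-prime processing 1 rose and 2 fell in each set. Among those that fell in spermatocytes was Lsm10, a subunit of the U7 particle that cuts histone transcripts (−1.07). Its effect in spermatocytes minus that in P18 testis was −0.87 ± 0.20, which did not pass (adjusted p = 0.0532, limma). Of the 6 transition protein and protamine genes, 2 were tested in spermatocytes and both fell (Prm1 −1.26, Tnp2 −0.99), and the 1 tested in P18 testis fell (Tnp2 −1.61). The others were below the filter. Genes this low may pass the filter through 1 genotype alone, so these falls are not read as a result for the 6 genes.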

How the data were processed

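Poly(A) RNA of 18 libraries was analysed from 1 table per library with a gene symbol and a value. Per the file headers the authors deposited FPKM values for the P18 testis libraries and RPKM values for the other 12. The build GRCm38, STAR 2.6.1a, CASAVA 1.9, edgeR 3.28.1 and featureCounts appear in the submitters' processing notes without roles, and how reads with several alignments were counted is not given in the sources used here. The tables hold 49585 rows at P14 and 55401 at P18. Rows with a symbol used more than once (190 and 217) were left out, and older P14 symbols were matched by RefSeq synonyms.

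Reads behind a value were read back from the value of 1 read with merged exon lengths of GENCODE M21, and 94.62% to 99.41% of low values came out whole within 0.03 reads. Libraries were brought to 1 scale with a TMM-type factor (trims of 30% and 5%), and log2(value + 0.5) was tested with limma 3.58.1 (trend, robust) in R 4.3.3 for genes with at least 1 in at least 3 libraries of the fit. Each KO comparison had its own 6 libraries, and fraction, age and both interactions had 12, so 7 comparisons in all. RPKM and FPKM tables were made separately, which also bears on differences between sets. Copies were counted as 50-mers of a gene's transcripts that other annotated genes hold on either strand. The fits were tested on simulated data first. Python 3.11.15 was used for the rest.

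Same-numbered KO and Het libraries deviated together in spermatocytes (correlations of 0.38, 0.13 and 0.21), so pairs are given there beside the results they change. The numbers come from the labels, which do not say what they share. No 2 libraries of a group agreed within sampling noise.

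The genes, their classes and all lists were chosen with earlier results of these data known, and H3f4 was classed as a testis variant after its symbol was seen. For 7 of the genes (among them H1f6, H1f0 and H1f1) the P14 values rest on another gene length, and ages are not compared. Named with values were testis variants and replacement genes reaching a mean of 1 in a group, replicative genes called between KO and Het, the 3 highest replicative genes, Zfp541, and up to 3 called genes per list and comparison, of which examples are printed. H1f1, H1f2, the variants below the filter, Trim17, H3f3aos and the other histone genes were named after their values were seen. Alternatives were other pseudocounts, filters and scalings, the replicate block, voom on reads read back and leaving out each library.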

Additional observations from a re-analysis of the deposited data

How the results depend on the processing

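Counts are of the 44 histone genes called. In P18 testis (2 called), a stricter filter (at least 5 in 3 libraries) gave 1, since H1f6 was no longer tested, no filter gave 3 (adding H1f5), values as deposited gave 3 (adding H1f2), and leaving out 1 library gave 0 to 3. In spermatocytes (2 called), no filter gave 1, the stricter filter 1, values as deposited 4 and the replicate block 4, and leaving out 1 library gave 1 to 2. For spermatocytes against testis (8 called) the stricter filter gave 5. For P18 against P14 (12 called) the restriction to genes with under 50% of 50-mers shared, chosen after seeing the data, gave 5. For the interaction of genotype and fraction (0 called) leaving out 1 library gave 0 to 1. The block left the P14 and P18 testis counts at 0 and 2. Same-numbered libraries there had correlations of 0.18, 0.08 and 0.11 at P14 and near 0 at P18. What they share is not given by the labels. Over the 24 called genes and comparisons, 425 of 444 settings kept the call and its direction, 19 kept the direction only, and 0 reversed. Settings in which a called gene fell below the filter and was not tested are not among the 444. Such was H1f6 in P18 testis under the stricter filter or without any 1 Het library. The 444 also hold calls of shared copies between sets, which are not read as a change. Without members mostly found elsewhere the replicative sum at P14 was 16.3 in KO testis and 14.9 in Het testis, against 216 and 183 with them. Other causes were not tested. Depth limits H1f6, with 6 to 12 reads in each KO library at P18.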
